A study of Mus musculus with 33 samples.

Results

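Mouse embryonic stem cells were given inducers for 10 days and then kept without them for 6 days. On day 16, 14 genes were low after retinoic acid alone and stood at a substantial level where CHIR had been given with it. They were chosen from group means of FPKM (fragments scaled to transcript length and library size). A gene had to have at least 20 FPKM in the untreated stem cells, at most 10% of that mean on day 16 of retinoic acid alone, and at least 30% of it on day 16 of retinoic acid with CHIR. Of 52631 genes, 4914 had at least 20 FPKM in stem cells, 151 of these were at most 10% on day 16 of retinoic acid, and 16 of the 151 were also at least 30% on day 16 with CHIR. The rule set Fbxo15 and Rpl10l aside by name, which left Slc2a3, Triml2, Bcat1, Mreg, Nfatc2ip, Sall1, Gstp2, Dact2, Tuba3a, Aqp3 and 4 genes with predicted, RIKEN or clone names (AC154636.1, Gm14303, 2210418O10Rik and Gm13166).

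The cells were of strain 129S2/SvPas, and each of the 11 groups had 3 libraries, made from poly(A) RNA. The mES group is undifferentiated stem cells at time 0, kept on inactivated mouse embryonic fibroblast feeders with 15% serum and LIF at 1000 U/mL. The RA/CHIR arm received all-trans retinoic acid at 10 µM plus CHIR at 5 µM, and the RA arm received retinoic acid at 10 µM alone. Both arms were plated on gelatin without LIF. They had the inducers in 15% serum for 10 days and then 10% serum with no inducer for 6 days. Sampling was on days 4, 7, 10 and 16, so that day 16 is 6 days after withdrawal. A level given as percent of mES therefore also spans the removal of LIF and feeders, which cannot be told apart from the inducers. In the labels, the treated cells are named XEN-like in the RA/CHIR arm and SMC-like in the RA arm. The remaining groups are XEN (extraembryonic endoderm cells) and SMC (smooth muscle cells), both grown in 15% serum without inducers. The labels do not say whether the 3 libraries of a group came from separate cultures, so the p-values measure the spread between these libraries, which may be technical.

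Mouse embryonic stem cells kept with LIF hold a transcription factor network around Pou5f1, Nanog, Sox2, Esrrb and Zfp42, and retinoic acid is a standard means of dissolving it. CHIR commonly stands for a small molecule that inhibits GSK3, a protein kinase. Blocking GSK3 stabilises beta-catenin, which acts with TCF/LEF factors on Wnt target genes and, in mouse stem cells, favours the undifferentiated state. Many genes that are high in stem cells are no part of that network and serve metabolism, transport or structure.

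Each library had 11573 to 13662 genes at 1 FPKM or more, and the 16508 genes that reached this level in 3 or more libraries were tested. The number of fragments behind an FPKM value is unknown. The summed level of the 5 stem cell markers Pou5f1, Nanog, Sox2, Zfp42 and Esrrb was 178 to 188 FPKM in RA/CHIR-16d libraries and 7.55 to 9.68 FPKM in RA-16d libraries, against 2404 to 2954 FPKM in mES libraries. Single means in RA/CHIR-16d were 10.8% of mES for Pou5f1, 6.04% for Zfp42, 2.13% for Esrrb, 1.37% for Sox2 and 0.867% for Nanog, all under the 30% of the rule. The 4 smooth muscle markers (Acta2, Tagln, Cnn1, Myh11) summed to a range of 7079 to 7969 FPKM in RA-16d libraries and of 17101 to 17721 FPKM in SMC, and the 8 endoderm markers (among them Gata4, Gata6 and Sox17) to a range of 2004 to 2170 FPKM in RA/CHIR-16d libraries and of 1005 to 1091 FPKM in XEN. Of 8 fibroblast markers, which feeders would carry, 6 reached 1 FPKM in mES, where the 8 summed to 38.6 to 65.0 FPKM, against 11832 to 12160 FPKM in SMC. The part of feeder RNA in the mES levels was not tested. These are bulk RNA levels, in which fewer cells of a type and less RNA per cell cannot be told apart.

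The 151 genes lost in RA-16d had a median of 5.85% of mES in RA/CHIR-16d, with quartiles of 2.09% and 14.9%. The 14 chosen genes thus form the upper end of a wide spread and not a separate cloud. Just inside the limit for RA-16d lay Dact2 at 10.0%, Nfatc2ip at 9.81% and Mreg at 8.76%, and just outside lay Orc1 at 10.2%, Grtp1 at 11.1% and Polr3g at 11.4%. Just inside the limit for RA/CHIR-16d lay Bcat1 at 31.1%, Slc2a3 at 32.3% and Nfatc2ip at 32.6%, and just outside lay Mybl2 at 29.9%, Dppa2 at 25.3% and Gm13147 at 24.8%. Just inside the limit for mES lay Aqp3 at 20.9 FPKM, Tuba3a at 23.6 FPKM and Dact2 at 24.5 FPKM, and just outside lay Arid3b at 18.8 FPKM, Gm10416 at 16.2 FPKM and Gpa33 at 13.2 FPKM. These are the values that chose the genes, and no test applies to them.

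**Figure D1:**
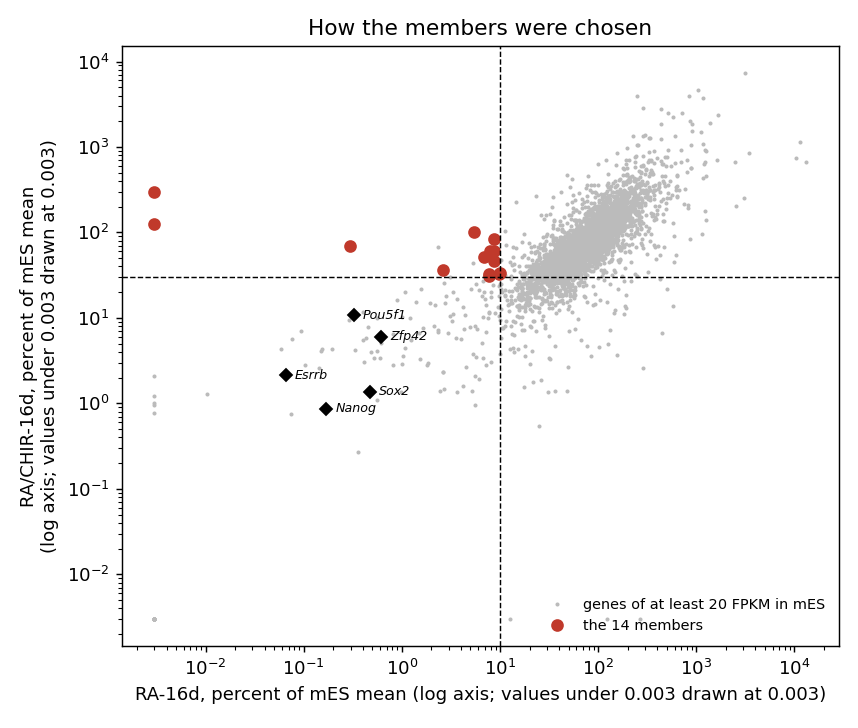
Each point is a gene with at least 20 FPKM in mES, placed by its RA-16d mean (x axis) and its RA/CHIR-16d mean (y axis), both as percent of the mES mean on log axes. Dashed lines mark 10% and 30%, red points are the 14 genes, and black diamonds are 5 stem cell markers, which lie between 0.867% and 10.8% on the y axis, under the 14.

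Promoter windows were at hand for 10 of the 14 genes, as the 250 bases before a RefSeq transcription start on GRCm38.p6, and 5 motifs were searched on both strands. A TCF/LEF motif (CTTTGAT) was found in 3.205% of all 32851 windows, an octamer motif (ATGCAAA) in 4.125%, a SOX motif (CATTGTT) in 3.288%, a GATA motif (AGATAA) in 9.988% and a nuclear receptor half-site (AGGTCA) in 14.024%. In the 14 windows of these genes, the TCF/LEF letters occurred once, in Bcat1, and the half-site occurred in Triml2, in Dact2 and at a second start of Bcat1. A match describes the letters only, and no match says only that these letters are not in the window. A set of 3 windows is shown 5′ to 3′ on the strand of the gene, for the gene with the largest difference between the arms on day 10 (Bcat1, chr6:145076158-145076407, minus strand), for the more abundant in mES of the 2 that stand on a list of pluripotency genes (Triml2, chr8:43180286-43180535, plus strand) and for the gene that stood highest against mES on day 16 among those with even libraries (Aqp3, chr4:41098184-41098433, minus strand). Capitals mark the match. In Bcat1 it is the reverse complement of the TCF/LEF motif, whose first letter lies 21 bases before the RefSeq start. In Triml2 it is the half-site, whose first letter lies 194 bases before the RefSeq start. The GENCODE M21 span of Bcat1, given below, ends at 145076184, so by that span the Bcat1 match lies within the gene. The Aqp3 window holds none of the 5 motifs and is all in lower case.
Bcat1: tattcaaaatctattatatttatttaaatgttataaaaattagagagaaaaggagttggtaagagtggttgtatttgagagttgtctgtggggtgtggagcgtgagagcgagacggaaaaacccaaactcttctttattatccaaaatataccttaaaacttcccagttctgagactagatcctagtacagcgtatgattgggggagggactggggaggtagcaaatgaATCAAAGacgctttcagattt
Triml2: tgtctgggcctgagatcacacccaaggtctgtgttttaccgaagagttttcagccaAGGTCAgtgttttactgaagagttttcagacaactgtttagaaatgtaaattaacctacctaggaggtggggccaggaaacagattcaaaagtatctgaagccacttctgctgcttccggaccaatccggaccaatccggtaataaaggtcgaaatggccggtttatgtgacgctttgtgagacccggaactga
Aqp3: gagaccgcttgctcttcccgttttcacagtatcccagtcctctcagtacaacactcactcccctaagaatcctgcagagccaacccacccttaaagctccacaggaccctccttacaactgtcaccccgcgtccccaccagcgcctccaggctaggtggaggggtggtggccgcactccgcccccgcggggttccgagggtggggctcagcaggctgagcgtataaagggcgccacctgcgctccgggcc

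The 14 genes lie on 9 chromosomes. On GRCm38, Slc2a3 spans chr6:122727809-122801640, Bcat1 chr6:144993835-145076184, Tuba3a chr6:125278274-125286042, Aqp3 chr4:41092722-41098183, Nfatc2ip chr7:126382854-126396737, Sall1 chr8:89027235-89044162, Gstp2 chr19:4040285-4046023, Mreg chr1:72159442-72212307 and Dact2 chr17:14195052-14204304, all on the minus strand. Triml2 spans chr8:43180541-43193881 on the plus strand. All 10 code for proteins and had even libraries, with an SD of 0.618% to 15.0% of the mean in mES. In the other 4 the SD was 34.1% to 173% of the mES mean, and they are described apart at the end of the member results.

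The 10 genes with even libraries took different courses, and the name "kept with CHIR" describes only some of them. Taking 30% of mES as the mark, 5 of the 10 stayed above it on every day of RA/CHIR (Slc2a3, Bcat1, Mreg, Gstp2 and Dact2), while Triml2, Nfatc2ip, Sall1, Tuba3a and Aqp3 were under it on at least 1 of days 4, 7 and 10. Sall1, Tuba3a and Aqp3 were under it on all 3 of these days and above it again on day 16. In the RA arm, group means stayed at or under 10% of mES from day 4 on for Aqp3, from day 7 on for Nfatc2ip and Tuba3a, from day 10 on for Triml2, Bcat1, Sall1 and Gstp2, and on day 16 for Slc2a3, Mreg and Dact2. The median of the 10 genes as percent of mES was 38.7%, 31.3%, 28.5% and 41.1% on days 4, 7, 10 and 16 of RA/CHIR. In the RA arm it was 26.0%, 13.8%, 7.44% and 8.20% on the same days.

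**Figure D2:**
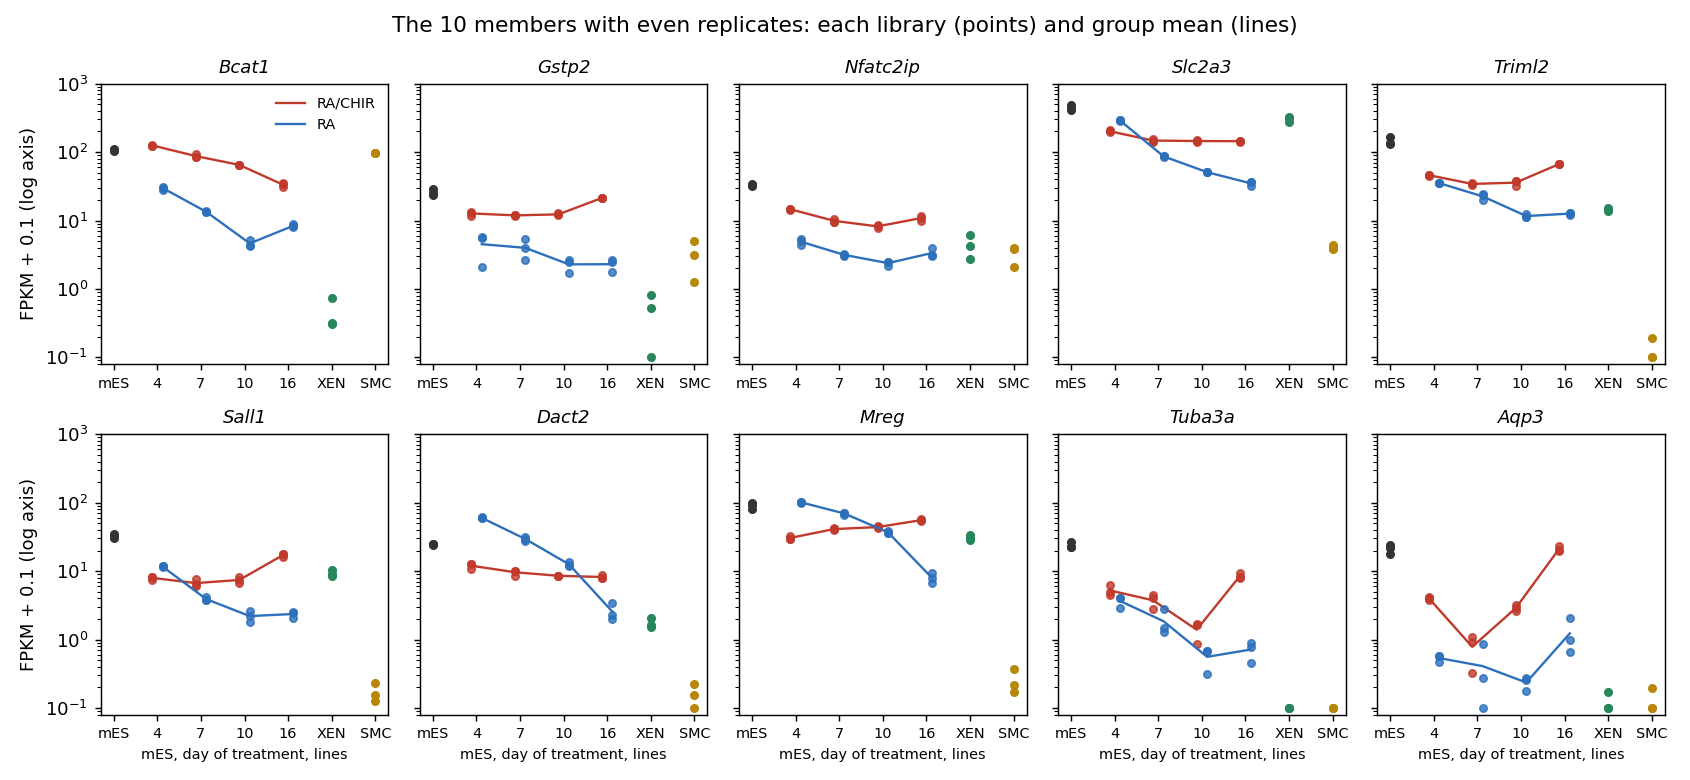
Levels of the 10 genes with even libraries, as FPKM + 0.1 on a log axis, in mES, on days 4, 7, 10 and 16 of RA/CHIR (red) and RA (blue), and in XEN and SMC; points are single libraries and lines join group means. The means of Bcat1, Gstp2, Nfatc2ip, Triml2, Tuba3a and Aqp3 lie higher in RA/CHIR on every day, and Slc2a3, Sall1, Dact2 and Mreg start higher in RA. From day 10 to day 16 of RA/CHIR, Sall1, Tuba3a and Aqp3 rise most (2.32, 6.58 and 7.64 times). Smaller rises are seen for Triml2 (1.88 times), Gstp2 (1.75 times), Nfatc2ip and Mreg.

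Days 4, 7 and 10 played no part in the choice of the genes, and the arms were compared there with limma on log2(FPKM + 1) over all 16508 genes. Calls needed a log2 difference of 1 or more in size with an adjusted p under 0.05, and all 14 genes were among those tested. On day 4, 4 of the 14 were called higher in RA/CHIR than in RA (Bcat1, Nfatc2ip, Gstp2 and Aqp3), where 3.34% of all genes were called higher, and 2 were called lower (Mreg and Dact2), where 4.28% of all genes were. On day 7, 4 were called higher (Bcat1, Nfatc2ip, Gstp2 and Gm13166) against 4.06% of all genes, and 1 was called lower (Dact2) against 6.61%. On day 10, 7 were called higher (Slc2a3, Triml2, Bcat1, Nfatc2ip, Sall1, Gstp2 and Aqp3) against 6.35% of all genes, and none lower against 9.07%. The median log2 difference over the 14 was 1.02, 0.77 and 1.48 on days 4, 7 and 10, beside 0.01, 0.00 and 0.00 over all genes tested. Over the 10 genes with even libraries it was 0.40, 0.71 and 1.48. The days are separate libraries of both arms, but the genes were chosen for the same contrast on day 16, so these counts are no independent sign that the genes respond to CHIR.

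**Figure D3:**
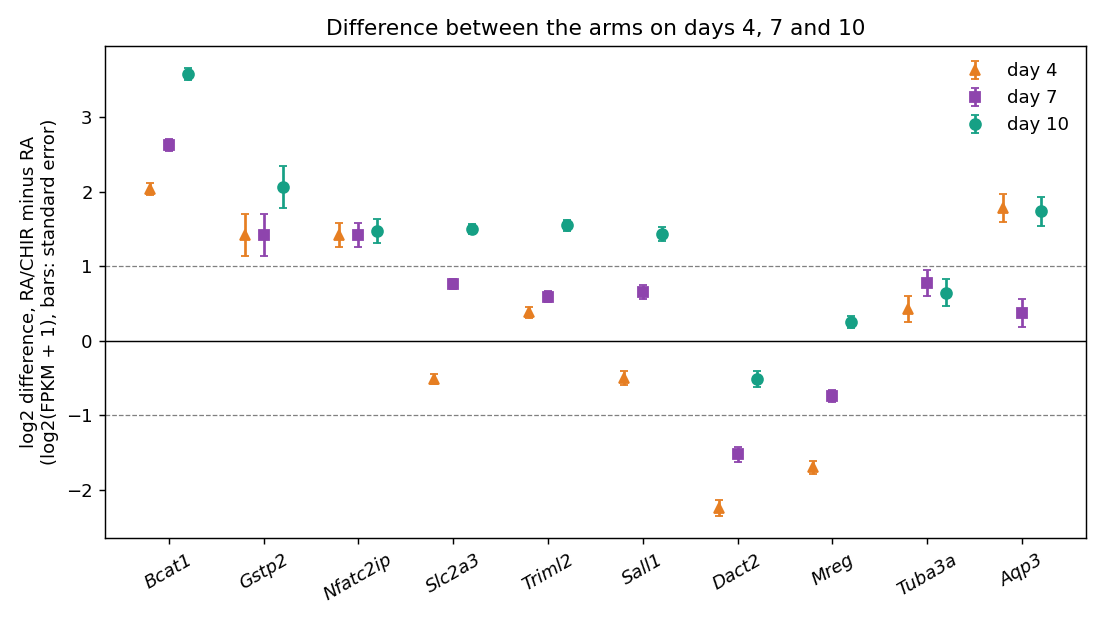
The log2 difference RA/CHIR minus RA on log2(FPKM + 1) with its standard error (limma) for the 10 genes with even libraries on days 4, 7 and 10; dashed lines mark a difference of 1 in size. Bcat1 runs 2.04, 2.62 and 3.58, while Dact2 runs -2.25, -1.53 and -0.51 over the 3 days.

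Among genes of metabolism and transport, Bcat1 stood further above the RA arm on log2(FPKM + 1) than any other of the 10 genes with even libraries. This held on each of the 3 days on that scale only. By the ratio of RA/CHIR to RA means, Aqp3 exceeded Bcat1 on day 4 (9.05 against 4.21) and on day 10 (20.5 against 14.3). Bcat1 encodes the cytosolic aminotransferase that removes the amino group of leucine, isoleucine and valine. From lowest to highest, its libraries had 124.3, 124.3 and 127.2 FPKM in RA/CHIR-4d, against 28.3, 29.97 and 31.1 FPKM in RA-4d. On day 10 they had 64.5, 64.7 and 65.3 FPKM in RA/CHIR, against 4.17, 4.30 and 5.11 FPKM in RA. The groups did not overlap on either day, and the RA/CHIR-4d libraries also lay above the mES libraries, which had 105.1, 106.8 and 109.5 FPKM. The log2 difference was 2.04 ± 0.08 (SE) on day 4 and 3.58 ± 0.08 on day 10, with adjusted p (limma) of 3.47e-17 and 1.67e-22. Within the RA/CHIR arm the means were 125, 87.3, 64.8 and 33.3 FPKM on days 4, 7, 10 and 16, so that Bcat1 was retained through the inducer phase and passed the 30% mark narrowly on day 16. The RA/CHIR-10d libraries against the RA/CHIR-4d libraries gave -0.94 ± 0.08, just short of the required size.

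Slc2a3, the high-affinity glucose transporter GLUT3, was the most abundant of the 10 in mES, with 409.4, 435.3 and 495.1 FPKM. On day 4 it had 193.8, 203.1 and 208.6 FPKM in RA/CHIR, against 285.6, 289.5 and 292.5 FPKM in RA. On day 10 it had 138.4, 144.1 and 152.0 FPKM in RA/CHIR, against 50.3, 50.5 and 51.3 FPKM in RA. The order of the arms thus turned round, and the groups did not overlap on either day. The log2 difference was -0.52 ± 0.07 on day 4 and 0.76 ± 0.07 on day 7, neither of the required size, and 1.49 ± 0.07 on day 10 (limma, adjusted p = 2.10e-16). The RA/CHIR means were 147, 145 and 144 FPKM on days 7, 10 and 16, while the RA means were 86.5, 50.7 and 34.8 FPKM.

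Gstp2 encodes a pi-class glutathione transferase, an enzyme of detoxification. Its libraries had 11.5, 12.8 and 13.4 FPKM in RA/CHIR-4d, against 1.97, 5.54 and 5.72 FPKM in RA-4d, and 11.8, 12.1 and 12.6 FPKM in RA/CHIR-10d, against 1.60, 2.40 and 2.56 FPKM in RA-10d. The groups did not overlap on either day, and the log2 difference was 1.42 ± 0.28 on day 4 and 2.06 ± 0.28 on day 10 (limma, adjusted p = 0.000159 and 5.38e-07). On day 16, RA/CHIR libraries had 20.9, 21.4 and 21.5 FPKM, where mES libraries had 23.3, 24.9 and 28.5 FPKM. Gstp2 shares 98.2% of 707 aligned bases with Gstp1, so reads of the 2 genes may have been divided between them by the authors' counting. Gstp1 was far more abundant, at 209 FPKM in RA/CHIR-16d and 118 FPKM in mES, and was not called between the arms on days 4, 7 or 10. Gstp3 had 8.62 FPKM in mES, under the limit of the rule, with 39.0% of that in RA/CHIR-16d and 6.38% in RA-16d. It was not called on these 3 days either. Both were picked for their family after values were seen.

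Aqp3, a channel for water and glycerol, was low in both arms through day 10 and high in 1 arm on day 16. RA/CHIR libraries had 3.71, 4.01 and 4.14 FPKM on day 4, 0.222, 0.835 and 0.994 FPKM on day 7, and 2.49, 2.80 and 3.07 FPKM on day 10. RA libraries stayed between 0 and 0.752 FPKM on these days. The log2 difference was 1.79 ± 0.19 on day 4 and 1.74 ± 0.19 on day 10 (limma, adjusted p = 1.88e-08 and 1.52e-08), and 0.37 ± 0.19 on day 7, when the libraries of the arms overlapped and the gene was not called. After withdrawal, the RA/CHIR-16d libraries had 19.9, 20.6 and 23.5 FPKM and the RA-16d libraries 0.566, 0.885 and 1.94 FPKM, where mES had 17.6, 21.4 and 23.8 FPKM. The RA/CHIR-16d libraries thus overlapped with those of mES, and their mean was 102% of the mES mean, where the RA/CHIR-7d mean was 3.27% of it.

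Of the regulators, Sall1 is a zinc finger repressor of the spalt family and Triml2 belongs to the tripartite motif family-like genes. Both stand on a list of 59 pluripotency genes. Sall1 had 7.42, 8.07 and 8.15 FPKM in RA/CHIR-4d, against 11.4, 11.6 and 11.7 FPKM in RA-4d. On day 10 it had 6.65, 7.35 and 8.01 FPKM in RA/CHIR, against 1.71, 2.12 and 2.49 FPKM in RA. The groups did not overlap on either day and their order was reversed, as for Slc2a3. The log2 difference was -0.50 ± 0.09 on day 4, not of the required size, and 1.43 ± 0.09 on day 10 (limma, adjusted p = 5.84e-13). On day 16 the RA/CHIR libraries had 16.1, 17.4 and 17.6 FPKM, more than on any earlier day of that arm, against 2.001, 2.34 and 2.45 FPKM in RA.

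Triml2 had 45.1, 46.3 and 46.5 FPKM in RA/CHIR-4d, against 34.9, 35.0 and 35.4 FPKM in RA-4d, and 32.0, 37.2 and 37.7 FPKM in RA/CHIR-10d, against 11.01, 11.3 and 12.3 FPKM in RA-10d. The groups did not overlap on either day. RA/CHIR minus RA gave a log2 difference of 0.38 ± 0.08 on day 4, short of the required size, and 1.55 ± 0.08 on day 10 (limma, adjusted p = 2.52e-15). On day 16 the RA/CHIR libraries had 66.7, 66.9 and 67.3 FPKM, above all RA/CHIR libraries of earlier days. Triml1, a related gene chosen for a look after its values were seen, was not called between the arms on any of the 3 days and had 10.6% of mES in RA/CHIR-16d.

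Nfatc2ip encodes a nuclear protein that binds the factor NFATc2 and carries SUMO-like domains. It had 14.1, 14.7 and 14.8 FPKM in RA/CHIR-4d, against 4.22, 4.87 and 5.33 FPKM in RA-4d, and 7.70, 8.13 and 8.48 FPKM in RA/CHIR-10d, against 2.09, 2.35 and 2.42 FPKM in RA-10d. The groups did not overlap on either day, and the log2 difference was nearly constant, at 1.42 ± 0.16, 1.42 ± 0.16 and 1.47 ± 0.16 on days 4, 7 and 10 (limma, adjusted p of 1.76e-08 on day 10). The highest mean of either arm was 43.9% of mES, in RA/CHIR-4d.

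Dact2 belongs to the Dapper family of proteins that bind Dishevelled and modulate Wnt and Nodal signalling. It went the other way from most of the genes during the inducer phase. Its libraries had 10.7, 12.5 and 12.5 FPKM in RA/CHIR-4d, against 59.1, 59.6 and 61.6 FPKM in RA-4d, where mES had 24.3, 24.5 and 24.6 FPKM. The RA-4d mean was thus 245% of mES and the RA/CHIR-4d mean 48.6%, with no overlap. The log2 difference was -2.25 ± 0.11 on day 4 and -1.53 ± 0.11 on day 7 (limma, adjusted p = 1.92e-15 and 3.27e-12), and -0.51 ± 0.11 on day 10, no longer of the required size. On day 16, RA/CHIR libraries had 7.77, 7.92 and 8.64 FPKM, against 1.88, 2.16 and 3.31 FPKM in RA. RA/CHIR means were 9.54, 8.45 and 8.11 FPKM on days 7, 10 and 16, and RA means were 29.4, 12.5 and 2.45 FPKM on the same days.

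Mreg, which encodes melanoregulin, a protein of organelle transport in pigment cells, was likewise the higher in RA early on. It had 29.3, 29.8 and 32.4 FPKM in RA/CHIR-4d, against 99.1, 101.1 and 103.6 FPKM in RA-4d. On day 10 it had 42.2, 44.4 and 45.2 FPKM in RA/CHIR, against 35.6, 36.1 and 38.7 FPKM in RA. The groups did not overlap on either day, and RA/CHIR was the lower arm on day 4 and the higher on day 10. Its log2 difference was -1.70 ± 0.09 on day 4 (limma, adjusted p = 7.77e-15), -0.74 ± 0.09 on day 7 and 0.25 ± 0.09 on day 10, the last 2 not of the required size. RA/CHIR means were 30.5, 41.1, 43.9 and 55.5 FPKM over days 4, 7, 10 and 16, and RA means 101, 69.4, 36.8 and 7.99 FPKM.

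Tuba3a encodes an alpha tubulin. It was not called between the arms on any of the 3 days, with log2 differences of 0.42 ± 0.18, 0.78 ± 0.18 and 0.64 ± 0.18. RA/CHIR-10d libraries had 0.769, 1.55 and 1.56 FPKM, against 0.211, 0.575 and 0.591 FPKM in RA-10d, without overlap. With a pseudocount of 0.1 in place of 1 the day 7 and day 10 differences were 1.07 and 1.35, of the required size. On day 16, RA/CHIR libraries had 7.96, 8.22 and 9.34 FPKM, against 0.361, 0.685 and 0.799 FPKM in RA. Tuba3a shares 96.5% of 1447 aligned bases with Tuba3b, whose mean was 3.24 FPKM in RA/CHIR-16d and 1.96 FPKM in mES, so reads may be divided between the copies. Tuba3b was called higher in RA/CHIR on day 10, by 1.10 ± 0.18 (limma, adjusted p = 6.86e-06). Its means there were low, at 1.41 FPKM in RA/CHIR and 0.118 FPKM in RA, and it was not called on days 4 or 7.

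Between days 4 and 10, most of the calls fell in the RA arm. In RA-10d against RA-4d, 7 of the 14 were called lower (Slc2a3, Triml2, Bcat1, Mreg, Sall1, Dact2 and Tuba3a), where 5.12% of all genes were, and none higher, where 6.26% of all genes were. The declines ran from -1.44 ± 0.09 for Mreg to -2.49 ± 0.07 for Slc2a3 on the log2 scale (limma, adjusted p = 1.39e-13 and 1.05e-20). In RA/CHIR-10d against RA/CHIR-4d, 1 was called lower (Tuba3a, -1.43 ± 0.18, adjusted p = 2.38e-07), where 4.1% of all genes were, and none higher, where 3.91% of all genes were. The median log2 difference over the 14 was -1.28 in the RA arm and -0.42 in the RA/CHIR arm, beside 0.01 and -0.01 over all genes tested. Whether the change differed between the arms was not tested. Without a minimum size, 6 of the 14 passed as lower and 1 as higher in the RA/CHIR arm. Of all 16508 genes tested, 8405 had an unadjusted p under 0.05 (limma) in that comparison. The share of all genes at the adjusted limit was not counted, so the looser counts are not read as particular to the 14.

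The 4 genes with uneven libraries met the rule on means of widely spread values, and they are named here after their values were seen. With each mES, RA-16d or RA/CHIR-16d library left out in turn and under 2 other scalings, Gm14303 and 2210418O10Rik met the rule in 11 of 11 settings, AC154636.1 in 10 and Gm13166 in 9. AC154636.1, an unprocessed pseudogene of 126 bases that shares 98.4% of its bases with 1700030C10Rik, is listed at 0 in 25 of the 33 libraries. Its RA/CHIR-16d libraries had 0, 670.8 and 744.7 FPKM and its RA-16d libraries 0 in all 3, where mES had 0, 0 and 482.2 FPKM. Gm14303, a processed pseudogene of 171 bases that is identical to part of the ribosomal protein gene Rps29, had 0, 90.9 and 183.3 FPKM in RA/CHIR-16d and 0 in all RA-16d libraries, where mES had 0, 69.1 and 152.3 FPKM. It is listed at 0 in 17 of the 33 libraries. Rps29 was called higher in RA/CHIR on days 7 and 10, by 1.03 ± 0.11 and 1.16 ± 0.11, and was not called on day 4. The 3823-base transcript of 2210418O10Rik is contained whole in Gm14296, and its RA/CHIR-16d libraries had 0.338, 30.6 and 46.0 FPKM, where mES had 0.169, 52.2 and 59.8 FPKM. Gm13166, a long intergenic RNA of 940 bases with 99.7% identity to Gm13236, had 4.88, 28.3 and 32.9 FPKM in RA/CHIR-16d, where mES had 22.9, 39.3 and 47.4 FPKM. Near-identical copies are not particular to these 4 genes, since Gstp2 and Tuba3a have them too, and the part of shared reads in the uneven values was not tested. Gm13166 was called higher on day 7 (2.42 ± 0.95, limma, adjusted p = 0.039), although its libraries overlapped, and the call was lost under 6 alternatives, with adjusted p of 0.0583 to 0.271. These were no low-value filter, a fit of the compared groups alone, and leaving out RA-7d replicate 1 or 2 or RA/CHIR-7d replicate 2 or 3. Without these 4 genes the counts on days 4, 7 and 10 were 4, 3 and 7 higher and 2, 1 and 0 lower.

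**Figure D4:**
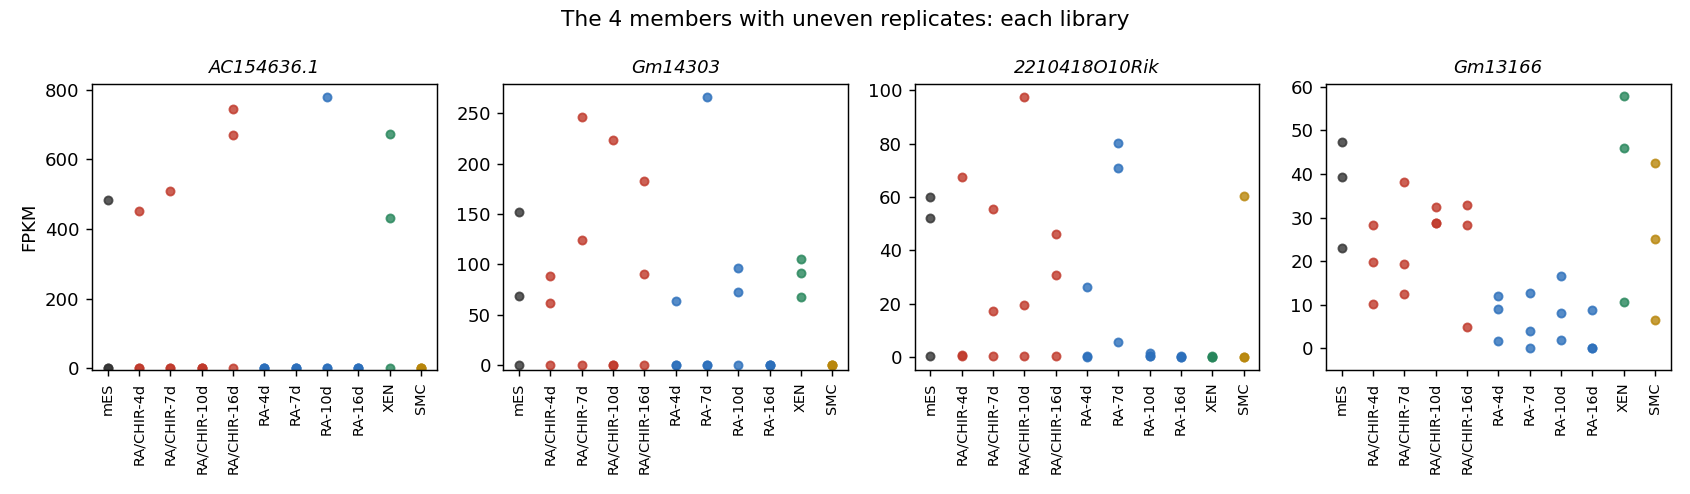
FPKM of the 4 genes with uneven libraries in all 33 libraries, by group (linear axis, each panel with its own scale). AC154636.1 and Gm14303 are at 0 in 25 and 17 libraries, beside libraries of up to 779 and 266 FPKM.

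The XEN and SMC groups were not used in the choice of the genes. In XEN against SMC, 6 of the 14 were called higher (Slc2a3, Triml2, Mreg, Sall1, Dact2 and Gm14303), where 12.5% of all genes were, and 2 lower (Bcat1 and Gstp2), where 17.2% of all genes were. Slc2a3 had 272.6, 318.2 and 324.9 FPKM in XEN, against 3.71, 3.88 and 4.33 FPKM in SMC, and thus 68.4% of the mES mean in XEN. Bcat1 had 0.210, 0.223 and 0.639 FPKM in XEN, against 97.2, 97.6 and 98.4 FPKM in SMC, which is 91.2% of the mES mean in SMC. The 2 genes were high in opposite groups, with log2 differences of 5.94 ± 0.07 and -6.20 ± 0.08 (limma, adjusted p = 5.00e-30 and 8.88e-29). Mreg had 28.4, 30.9 and 33.7 FPKM in XEN, against 0.0698, 0.115 and 0.275 FPKM in SMC. Sall1 had 8.32, 9.04 and 10.2 FPKM in XEN, against 0.026, 0.054 and 0.134 FPKM in SMC. Tuba3a was listed at 0 in all 6 of these libraries and Aqp3 was at most 0.0992 FPKM. The call of Gm14303 (adjusted p = 0.035) was lost when any 1 of the 6 libraries was left out, with adjusted p of 0.0596 to 0.073. Leaving out XEN replicate 1 brought AC154636.1 past the threshold, at 9.08 (adjusted p = 0.0133).

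Set against XEN, RA/CHIR-10d had 6 of the 14 called higher (Triml2, Bcat1, Gstp2, Dact2, Tuba3a and Aqp3), where 12.7% of all genes were, and 1 lower (Slc2a3), where 9.41% of all genes were. Bcat1 differed most among the even genes, by 5.61 ± 0.08 (limma, adjusted p = 2.60e-27), with 64.5, 64.7 and 65.3 FPKM in RA/CHIR-10d, against at most 0.639 FPKM in XEN. Gstp2 had 11.8, 12.1 and 12.6 FPKM in RA/CHIR-10d, against 0, 0.430 and 0.726 FPKM in XEN, a difference of 3.29 ± 0.28. Slc2a3 was lower in RA/CHIR-10d, with a log2 difference of -1.07 ± 0.07, a call lost under quantile normalization, where the difference was -0.75. Mreg, Sall1 and Nfatc2ip were not called, at 0.49 ± 0.09, -0.29 ± 0.09 and 0.84 ± 0.16, and without XEN replicate 1 Nfatc2ip was called at 1.08. The median over the 14 was 1.01, beside 0.07 over all genes tested.

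**Figure D5:**
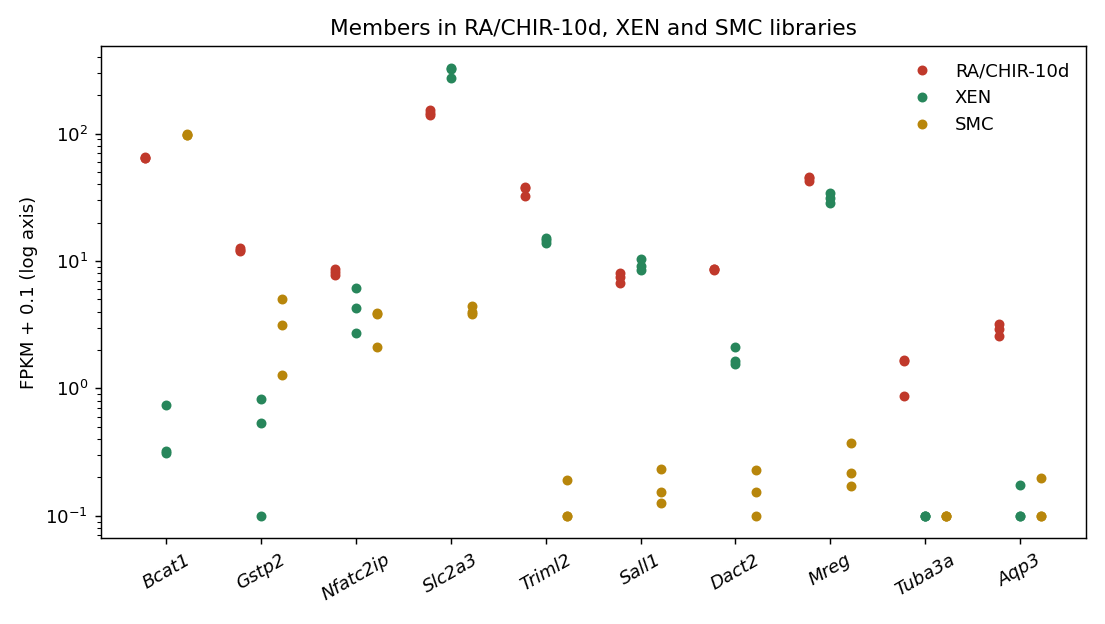
FPKM + 0.1 on a log axis of the 10 genes with even libraries in each RA/CHIR-10d, XEN and SMC library. Bcat1 is at most 0.639 FPKM in XEN and at 97.2 to 98.4 FPKM in SMC, Slc2a3 is at 272.6 to 324.9 FPKM in XEN and 3.71 to 4.33 FPKM in SMC, and Tuba3a is at 0 in both.

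The list of pluripotency genes, chosen with results of these data known, overlapped with the 14 in Sall1 and Triml2. Of the 59 listed genes, 44 had at least 20 FPKM in mES and 30 of these were at most 10% of mES in RA-16d. Those 30 had a median of 4.08% of mES in RA/CHIR-16d, and Sall1 and Triml2 were the ones among them that reached 30%. Fbxo15, which the rule set aside by name, is not on the list. It was at 66.9% of mES in RA/CHIR-16d and 2.33% in RA-16d. On days 4, 7 and 10, 14, 17 and 21 of the 58 listed genes that were tested were called higher in RA/CHIR than in RA, where 3.34%, 4.06% and 6.35% of all genes were. On the same days 5, 2 and 2 of them were called lower, where 4.28%, 6.61% and 9.07% of all genes were. The list's median log2 difference was 0.23, 0.28 and 0.33 on the 3 days, beside 0.01, 0.00 and 0.00 over all genes tested. Wnt and beta-catenin target genes could not be among the 14, since 0 of the 34 in the table had 20 FPKM in mES. Of the 31 of them that were tested, 22, 18 and 14 were called higher in RA/CHIR than in RA on days 4, 7 and 10, and 1, 1 and 3 lower, with median log2 differences of 1.96, 1.57 and 0.87. The part of residual stem cells in the RA/CHIR-16d levels of the 14 genes was not tested.

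Slc2a3 lies on chromosome 6 within 150 kb of Nanog and of Gdf3, a growth factor gene of stem cells. In RA/CHIR-16d, Slc2a3 was at 32.3% of mES, while Nanog was at 0.867%, Gdf3 at 2.84% and Apobec1 at 33.6%. On its other side, Foxj2 was at 453% and Necap1 at 103%. The mES means were low for Apobec1 (8.22 FPKM) and Foxj2 (2.64 FPKM), and 41.5 FPKM for Necap1. In RA-16d the means were 1.59 FPKM for Apobec1, 6.62 FPKM for Foxj2 and 29.0 FPKM for Necap1, so Foxj2 was above mES in both arms. The remaining neighbours, Dppa3, C3ar1 and Clec4a1, had under 1 FPKM in mES. In RA/CHIR-10d the means were 145 FPKM for Slc2a3 and 0.233 FPKM for Nanog. Among transporters of the same family, Slc2a1 was not called between the arms on days 4, 7 or 10. On day 4 its log2 difference was 0.64 ± 0.11, short of the required size, with means of 200 FPKM in RA/CHIR and 128 FPKM in RA. The difference of Slc2a3 on that day was -0.52. On day 10 the Slc2a1 means were 43.4 FPKM in RA/CHIR and 47.3 FPKM in RA, where Slc2a3 had 145 and 50.7 FPKM in the same groups. Slc2a1 and the neighbours were picked for their family or position after the values of Slc2a3 were known.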

How the data were processed

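RNA was measured by paired-end sequencing of poly(A) libraries, 33 in 11 groups of 3. Per the submitters' processing notes, the authors used Trimmomatic 0.33, HISAT2 2.0.4, Cufflinks and Cuffdiff with the build GRCm38; parameters are not given in the sources used here. The deposited values are FPKM per gene, as the authors computed them, without counts, so no depth or counting interval can be had, and the use of strand in counting is not stated.

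Levels were analysed as log2(FPKM + 1), which understates the change of low genes, without further scaling. The 16508 genes with at least 1 FPKM in at least 3 libraries were fitted with limma 3.58.1 (R 4.3.3), with 1 mean for each group, a trend in the prior variance, and 22 residual and 3.1 prior degrees of freedom. Two-sided p-values were adjusted by Benjamini-Hochberg over all genes tested in each of 7 comparisons. Errors of log2 differences are standard errors of the model. Similar transcripts were found with blastn 2.17.0 in GENCODE M21, at 95% identity or more over at least 100 bases where called shared. Scripts used Python 3.11.15.

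The 14 genes and all lists were chosen with earlier results of these data known. mES, RA-16d and RA/CHIR-16d chose the genes, so no comparison with them was tested. Genes were named from lists, level, size of difference and nearness to a threshold; genes with predicted or clone names were to be counted only. Alternatives were other scaling, pseudocount, filters, fits, a replicate block, other thresholds and leaving out each library.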

Additional observations from a re-analysis of the deposited data

How the results depend on the processing

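Of 98 pairs of gene and comparison, each refitted under 15 settings, 68 stayed on the same side of the threshold throughout, and no called value changed sign; of the 1470 refits, 1421 kept the call or its absence, 35 gained a call and 14 lost one. The 14 losses were of Gm13166 on day 7, Gm14303 in XEN against SMC, and Slc2a3 in RA/CHIR-10d against XEN.

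With no minimum log2 difference, members called lower were 4 on day 4 (RA/CHIR against RA), 2 on day 7 and 1 on day 10, and those called higher on day 7 were 8. The same setting gave 1 higher and 6 lower in RA/CHIR-10d against RA/CHIR-4d, and 2 lower in RA/CHIR-10d against XEN. Of all 16508 genes tested, 8091, 8725 and 9752 had an unadjusted p under 0.05 (limma) between the arms on days 4, 7 and 10. The share of all genes at the adjusted limit was not counted, so the counts without a minimum size are not read as particular to the members. Under quantile normalization, 0 were lower in RA/CHIR-10d against XEN. Leaving out 1 library at a time, that count was 1 to 2, with AC154636.1 added without XEN replicate 1. The counts higher in RA/CHIR were 4 on day 4, 3 to 4 on day 7 and 7 to 8 on day 10. Counting without the 4 genes of uneven libraries was chosen after seeing the data and moved no count by over 1.5 times, though the median difference on day 4 was 0.40 without them and 1.02 with them.

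The choice of genes was more open. The rule gave 4 genes at a limit of 5% for RA-16d and 43 at 20%, 24 at a limit of 20% for RA/CHIR-16d and 8 at 50%, and 6 at 50 FPKM in mES. With 1 library left out it gave 13 to 16 genes, and over these and 2 other scalings Dact2 was chosen in 7 of 11 settings, Nfatc2ip in 9 and Aqp3 in 10. The number above the mES mean on day 16 was 0 to 3, and 0 without mES replicate 3. In that setting AC154636.1 was not counted, since its mES mean was then 0, while its RA/CHIR-16d mean was 472 FPKM.

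Same-numbered libraries had correlations of -0.08 to 0.10 in their deviations from the group means, over 21 pairs. The replicate numbers thus gave little sign of a pairing, but with 3 libraries in a group these values cannot exclude it. With the replicate block, 4, 4 and 7 genes were called higher on days 4, 7 and 10 and 7 in RA/CHIR-10d against XEN, with 2210418O10Rik added there at 3.64. FPKM without counts limits what can be said of levels near 0.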
